A study of Hypholoma fasciculare and Trametes versicolor and Trametes versicolor
Hypholoma fasciculare with 9 samples.

Results

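The 62 features described here are Trametes versicolor genes that were read in every library of the fungus growing alone. They were chosen by their reads: a feature belonged to the set when it had 10 reads or more in each of the 3 libraries of T. versicolor alone, unless it had 200 reads or more in all 6 T. versicolor libraries. The rule kept 62 of the 14296 features with a T. versicolor ID (0.434%), in a table of 32207 features of both fungi, and left out 11 abundant ones. RNA was sequenced from beechwood blocks colonised by laboratory cultures. The 3 interaction libraries came from blocks holding T. versicolor strain TvFPH and Hypholoma fasciculare strain GTWV2 together, 14 h after contact. The 3 control libraries came from blocks holding T. versicolor TvFPH alone. Each fungus is thus represented by a single strain. The question is how expression in T. versicolor differs when it meets the other fungus. Whether the replicates came from separate microcosms is not in the labels. The p-values therefore cover the library-to-library spread alone, and this could be technical.

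T. versicolor is a white-rot fungus, which degrades lignin as well as cellulose with secreted oxidases and hydrolases. Hypholoma fasciculare spreads through soil as mycelial cords and takes over wood that other fungi already occupy. Where such mycelia meet, known responses include secreted enzymes, toxic metabolites and changes in growth at the contact front. No name or function comes with the 62 IDs, so none is stated for any of them.

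The interaction libraries held 3884431, 3508480 and 4465882 T. versicolor reads, and the controls 5794060, 5664765 and 7389076. Nearly all of these fell on the 11 abundant features, which are 150 to 624 bases long. Outside them, replicates 1, 2 and 3 had 3328, 15496 and 3354 reads in the interaction and 16997, 20253 and 32794 in the controls. Interaction replicate 2 stood apart from the other interaction libraries in this number. Control replicate 3 stood apart in its breadth, with reads on 9575 features outside the abundant ones, against 3172 and 2448 in control replicates 2 and 1. Features with an H. fasciculare ID held 5018, 6920 and 6764 reads in the interaction and 364, 356 and 500 in the controls.

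Levels in the controls, which chose the members, are given as a description. Mean levels ran from 1.96 to 34.3 CPM (reads per 1000000 T. versicolor reads), with a median of 4.27 CPM. The most read member (15598 bases) had 163, 207 and 282 reads in the controls, or 34.3 ± 5.39 CPM (SD, n = 3). The next (5506 bases) had 121, 171 and 211, or 26.5 ± 4.97 CPM (SD, n = 3). Only 3 of the 62 reached 200 reads in any library. At the low end, 4 members had 10 reads as their lowest control count, and 7 features with 9 reads as their lowest lay just outside.

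**Figure D1:**
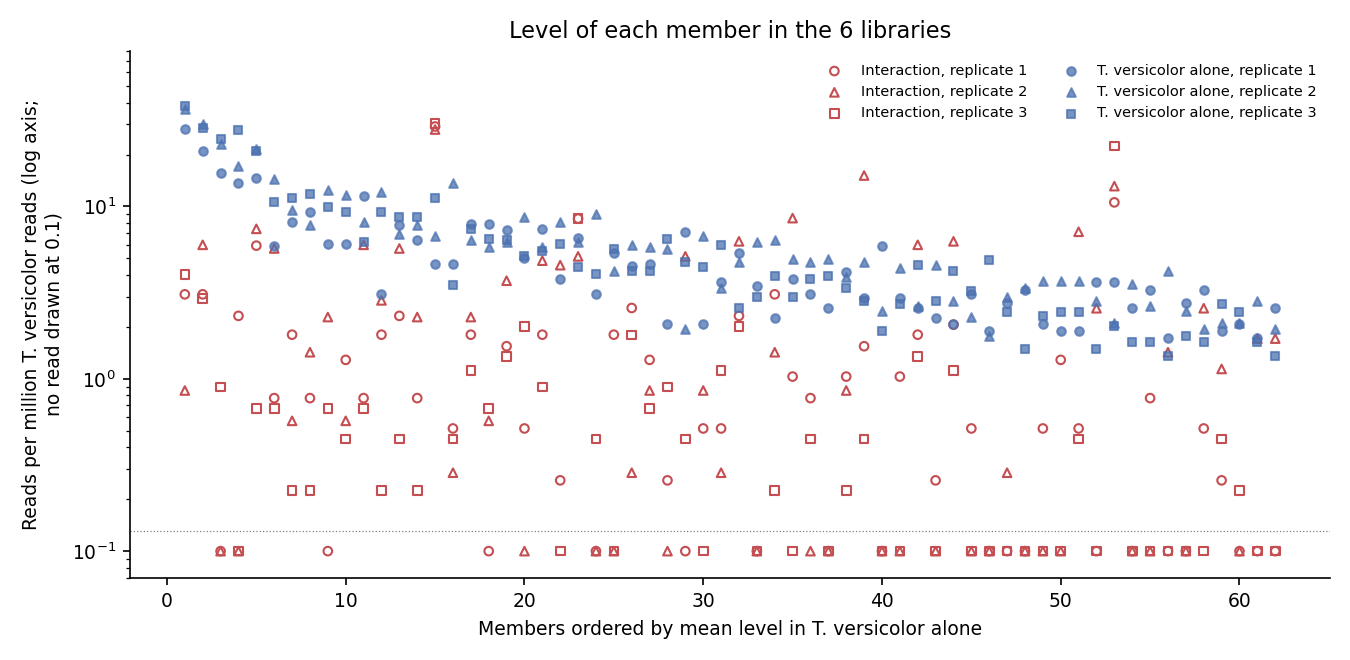
Level of each of the 62 members in CPM (log axis), ordered by the mean of the 3 control libraries. Red open symbols are interaction libraries and blue filled symbols controls; a library without a read is drawn at 0.1. Control means run from 34.3 down to 1.96 CPM, and the red symbols lie above all blue ones at 2 members.

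The members were mostly long. Their median length was 4344 bases (quartiles 2979.5 and 5462), with 8 members under 1000 bases and 5 over 10000. For comparison, 879 further features outside the abundant ones reached 20 reads over all 6 libraries, and their median was 2553 bases. A longer feature collects more reads at the same level, so reaching 10 reads is easier for it. Over the members, length and control CPM had a Spearman rho of 0.13, whereas length and level per kilobase had a rho of -0.63 (62 features, not independent replicates; the second measure contains the length itself).

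Per length, a pair of short members stood highest in the controls. A feature of 291 bases had 67.2 ± 25.5 CPM per kilobase in the controls, from 79, 97 and 206 reads. Another feature of the same length had 33.1 ± 5.37 CPM per kilobase, from 47, 54 and 83 reads, and its control libraries did not overlap with those of the first. A feature of 1268 bases followed with 16.6 ± 3.86 CPM per kilobase and one of 439 bases with 16.5 ± 12.6 (SD, n = 3 for each value). These last values differ by less than their spread. The fifth, of 1007 bases, had 9.42 ± 3.24 CPM per kilobase (SD, n = 3). The lowest per length was a feature of 12465 bases with 0.219 CPM per kilobase, while the longest member, of 16893 bases, had 37, 44 and 64 control reads.

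**Figure D2:**
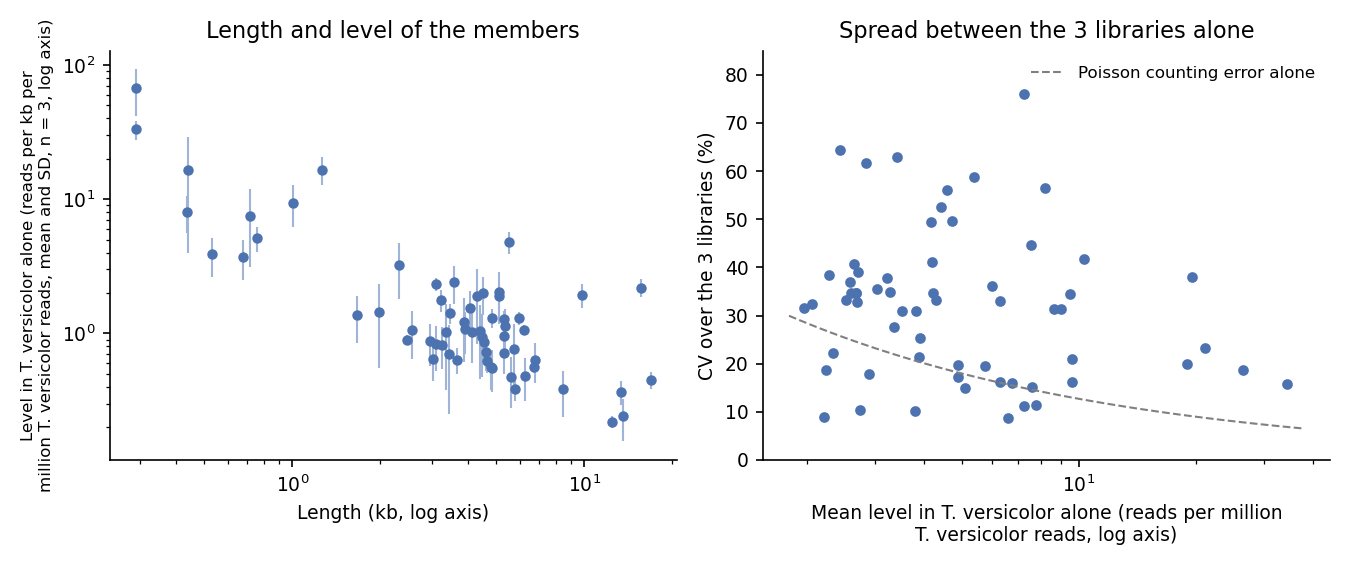
Left, length (kb) of the 62 members against their control level per kilobase (mean and SD of 3 libraries, both axes log). Right, mean control level (CPM, log axis) against the coefficient of variation over the 3 controls, with the value that Poisson counting error alone would give as a dashed line. The highest points on the left are the pair of 291 bases, at 67.2 and 33.1 CPM per kilobase, and the coefficients run from 8.68% to 76.0%.

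Most members varied between the controls by more than Poisson counting gives. The coefficient of variation of CPM over the 3 controls had a median of 32.6%, with 18 members under 20% and 8 over 50%. The variance over the controls, divided by the variance that Poisson counting gives, had a median of 2.41 and was under 1 in 11 members. Both measures take all T. versicolor reads as the scale. The most even member in CPM, of 6208 bases, had 42, 35 and 47 reads (8.68%). The next were a feature of 2472 bases with 12, 12 and 18 reads (8.99%) and one of 6742 bases with 24, 22 and 25 reads (10.1%). This order depends on the scale. Per 10000 reads outside the abundant features these members had 18.8 ± 5.35, 6.16 ± 0.811 and 10.9 ± 3.25 (SD, n = 3 each). A feature of 291 bases had 26.5 ± 1.18 (SD, n = 3) on that scale. The most uneven in CPM was the feature of 439 bases, with 27, 77 and 26 reads (76.0%), where control replicate 2 was high. A feature of 3442 bases had 10, 24 and 10 reads (64.3%), and one of 3357 bases had 34, 14 and 14 (62.9%). Ranks over the members had Spearman rho of 0.48, 0.49 and 0.54 between pairs of interaction libraries and 0.62, 0.68 and 0.76 between pairs of controls (62 features, which had to pass the threshold in the controls).

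How often the remaining control joined a pair of controls describes the rule itself. The features at 10 reads in all 3 controls are the 62 members in each case. Of 113 features with 10 reads or more in control replicates 2 and 3, 62 also reached 10 reads in replicate 1 (54.9%), and 92 had at least 1 read there. Of 123 features at 10 reads in replicates 1 and 3, 50.4% reached 10 reads in replicate 2. Of 97 features at 10 reads in replicates 1 and 2, 63.9% reached 10 reads in replicate 3, and 95 had a read there. A single control alone gave many more features: 599, 653 and 375 outside the abundant ones reached 10 reads in control replicates 1, 2 and 3.

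In the interaction the members together held fewer reads per T. versicolor read. They had 410, 612 and 412 reads in the interaction libraries and 1936, 2477 and 2982 in the controls. Summed, they averaged 124 ± 44.1 CPM in interaction libraries, against 392 ± 52.6 CPM in controls (SD over 3 libraries each), without overlap. Against the reads outside the abundant features the picture was different. Interaction replicate 1 had 12.3% of such reads on the members (95% Wilson interval 11.2 to 13.5), replicate 2 had 3.95% (3.65 to 4.27) and replicate 3 had 12.3% (11.2 to 13.4). Control replicate 1 had 11.4% (10.9 to 11.9), replicate 2 had 12.2% (11.8 to 12.7) and replicate 3 had 9.09% (8.79 to 9.41). The groups overlapped on this scale, averaging 9.52% ± 4.82 in interaction libraries against 10.9% ± 1.62 in controls (SD over 3 libraries each). Without interaction replicate 2 the interaction mean was 12.3%. The control reads chose the members, so no test is given for these sums. Both scales are shares of T. versicolor reads, so less RNA from the members and more from the other features cannot be told apart. Nor can fewer cells expressing a member and less of its RNA per cell, in libraries of whole blocks. The intervals, like limits from 3 counts, reflect counting alone, as reads were not described as carrying molecular identifiers.

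**Figure D3:**
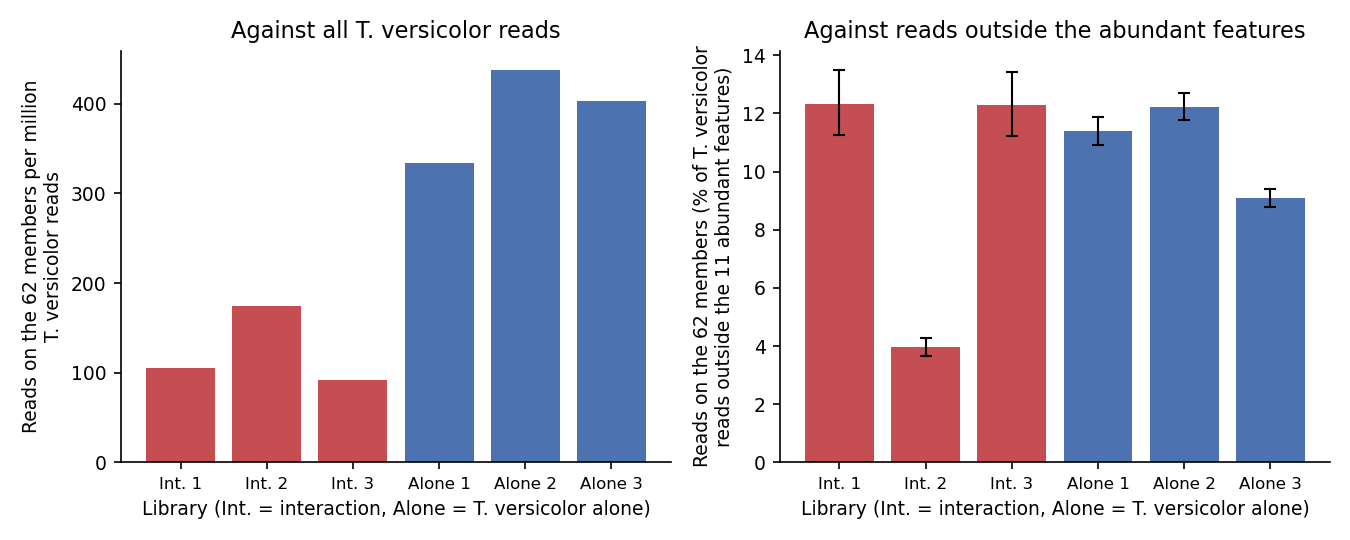
Reads on the 62 members in each library. Left, in CPM, where the 3 interaction libraries (red) lie at 92.3 to 174 and the 3 controls (blue) at 334 to 437. Right, as a percentage of T. versicolor reads outside the 11 abundant features with 95% Wilson intervals, where interaction replicate 2 lies at 3.95% and the other 5 libraries at 9.09% to 12.3%.

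Interaction replicate 2 had its extra reads elsewhere. Non-members outside the abundant features held 14884 reads there, against 2918 and 2942 in interaction replicates 1 and 3. Of 444 non-members with 10 reads or more in replicate 2, 317 had none in the other interaction libraries. The share of H. fasciculare reads also moved, at 60.1%, 30.9% and 66.9% of all reads outside the abundant features in interaction replicates 1, 2 and 3, while the highest control had 2.10%. The part of these differences in the members' values was not tested.

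Most members were still detected in the interaction. A read was seen for 44, 41 and 38 of the 62 in interaction replicates 1, 2 and 3; 29 members were read in all 3 libraries, 10 in 2, 16 in 1 and 7 in none. Of the 16 read in a single library, 8 were read in replicate 1, 5 in replicate 2 and 3 in replicate 3. All 3 interaction libraries had reads on 46.8% of the members, against 13.6% of the 147 features that reached 10 reads in exactly 2 controls. No interaction library had reads on 11.3% of the members, against 26.5% of those 147. These shares were not tested. Control reads chose both sets, and the rule asked for more of them from the members. The members were also longer, with a median of 4344 bases against 3481. Only 4 members had 10 reads or more in every interaction library, and 1 further feature outside the abundant ones did so. That feature, of 3236 bases, had 17, 20 and 31 reads in the interaction and 6, 5 and 17 in the controls.

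Per length, another member stood highest in the interaction. The highest mean was that of a feature of 435 bases, with 13.1 ± 18.8 CPM per kilobase (SD, n = 3) in the interaction and 8.08 ± 2.50 (SD, n = 3) in the controls. It rested on 53 reads in interaction replicate 2, against 6 and 2 in replicates 1 and 3. The features highest in the controls had lower values in the interaction, but most kept a high rank. The 5 highest per length in the controls ranked 5, 4, 30, 9 and 8 among the 62 members in the interaction. The pair of 291 bases had 2.65 ± 4.60 and 2.97 ± 2.85 CPM per kilobase in the interaction (SD, n = 3 each), against 67.2 and 33.1 in the controls.

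The control reads that chose the members are one arm of every comparison with the interaction. For members that were lower in the interaction, the fitted differences are therefore given as a description with no test. T_gene_9226 (2965 bases) rose in the interaction. It had 41, 46 and 100 reads in the interaction and 21, 12 and 15 in the controls. It averaged 15.4 ± 6.23 CPM in interaction libraries, against 2.59 ± 0.896 CPM in controls (SD over 3 libraries each), without overlap. On the log2 scale the rise was 2.52 ± 0.75 (SE; edgeR adjusted p = 0.0184). Leaving out the abundant features gave 4.39 ± 0.84 (SE; edgeR adjusted p = 0.00616). The call was lost without control replicate 2, at a larger log2 fold change of 4.05 (edgeR adjusted p = 0.204), and without control replicate 3, at 2.46 (edgeR adjusted p = 0.101). It was also lost with the replicate block, without a low-count filter (edgeR adjusted p = 0.0823 and 0.571) and by DESeq2 (adjusted p = 1.00). It was kept without interaction replicates 1 and 2, at 4.29 and 4.58.

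T_gene_8201 (2314 bases) had the most reads of any member in each interaction library and rose as well. It had 113, 98 and 135 reads in the interaction and 27, 38 and 83 in the controls, or 29.1 ± 1.15 CPM against 7.53 ± 3.36 CPM (SD, n = 3 each). The interaction libraries lay close together and the controls spread more widely, with no overlap. It alone took 16% to 32.8% of the members' reads in the interaction libraries, against 1.39% to 2.78% in the controls. The rise was 1.82 ± 0.63 on the log2 scale (SE; edgeR adjusted p = 0.0344). Leaving out the abundant features gave 3.69 ± 0.72 (SE; edgeR adjusted p = 0.00616). The call was lost without control replicate 2 or interaction replicate 1, at larger log2 fold changes of 3.30 and 3.21 (edgeR adjusted p = 0.204 and 0.0948). It was also lost with the replicate block, without a low-count filter (edgeR adjusted p = 0.0849 and 0.571) and by DESeq2 (adjusted p = 1.00). It was kept without interaction replicates 2 and 3, at 3.73 and 2.45, and without control replicate 3, at 2.41.

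Another member, of 3226 bases, had similar mean CPM in both groups, but this depended on the scale. It had 33, 18 and 38 reads in the interaction and 38, 35 and 33 in the controls, or 7.38 ± 1.95 CPM against 5.73 ± 1.11 CPM (SD, n = 3 each), with overlap. Per 10000 reads outside the abundant features its interaction libraries had 99.2, 11.6 and 113. The means on that scale were 74.7 ± 55.1 against 16.6 ± 6.18 in the controls (SD, n = 3 each), again with overlap. The log2 difference was 0.33 ± 0.69 (SE; edgeR adjusted p = 0.758), or 2.17 ± 0.79 (SE) on leaving out the abundant features (edgeR adjusted p = 0.131).

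At the other end, 7 members between 1980 and 5308 bases long had no read in any interaction library, with 10 to 36 reads in each control. T_gene_3439 (4133 bases) had 20, 35 and 22 control reads, or 4.2 ± 1.73 CPM (SD, n = 3). If 3 counts are allowed for in the interaction libraries together, it was at least 16.6-fold lower than its control mean among T. versicolor reads. Among reads outside the abundant features it was at least 8.81-fold lower. T_gene_3466 (5308 bases) had 15, 28 and 29 control reads, or 3.82 ± 1.18 CPM (SD, n = 3), and was at least 15.1-fold lower on the first scale and at least 7.76-fold on the second. Over all 7 members the lowest bound was 9.21-fold on the first scale and 4.99994-fold on the second. All these bounds take the control mean as exact and leave out the spread between controls. The control reads chose the members, so the bounds are a description with no test. The bounds on the second scale rest mostly on interaction replicate 2. It had 15496 reads outside the abundant features, against 3328 and 3354 in replicates 1 and 3. In replicates 1 and 3 alone, 3 reads stand for 9.01 and 8.94 per 10000. The control means of T_gene_3439 and T_gene_3466 on that scale were 11.9 and 10.5, so those libraries by themselves set only a weak bound.

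**Figure D4:**
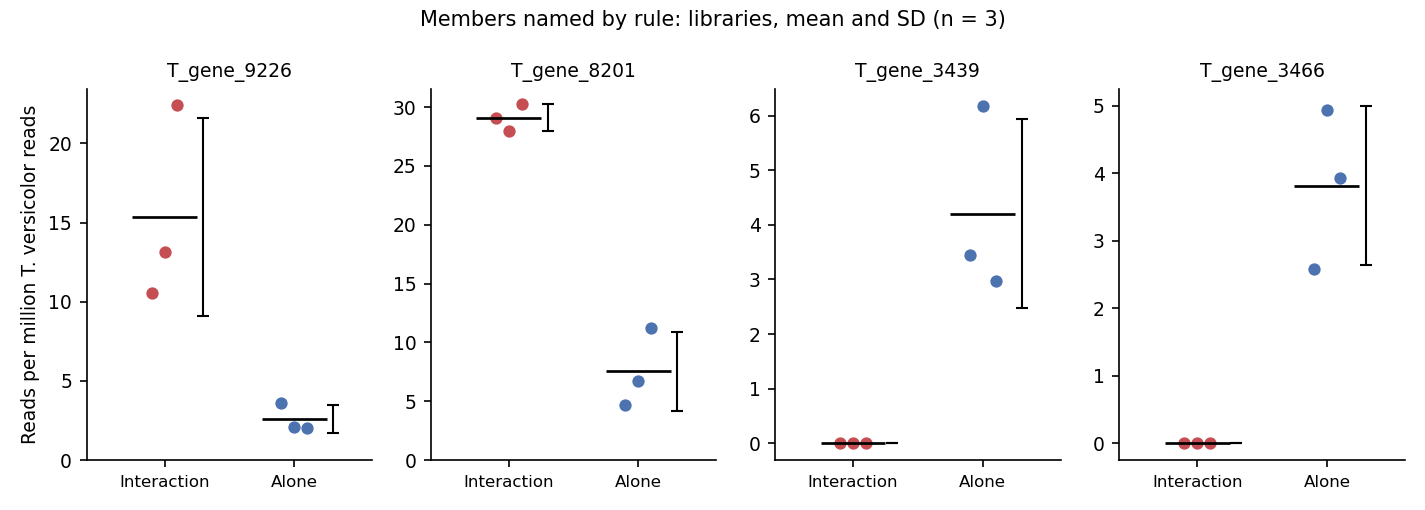
CPM of the 4 members named by rule in each interaction library (red) and control (blue), with the mean and SD of 3 libraries. T_gene_9226 and T_gene_8201 lie higher in every interaction library than in any control, and T_gene_3439 and T_gene_3466 have no interaction read.

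The members most read in the controls, picked here for those control reads, had few reads in the interaction. The feature of 15598 bases had 12, 3 and 18 reads in the interaction, or 2.66 ± 1.63 CPM, against 34.3 ± 5.39 CPM in the controls (SD, n = 3 each). That of 5506 bases had 12, 21 and 13 reads in the interaction, or 4.0 ± 1.73 CPM, against 26.5 ± 4.97 CPM in the controls (SD, n = 3 each). Their fitted log2 differences were -3.71 and -2.88 with all T. versicolor reads as the scale, and -1.76 and -1.20 once the abundant features were dropped. The feature of 1268 bases had 0, 0 and 4 reads in the interaction and 90, 130 and 183 in the controls. Its fitted log2 differences on these scales were -6.01 ± 1.08 and -4.16 ± 1.16 (SE).

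How many members lay outside the range of the controls depended on what set the scale. In CPM, 45 members were lower in every interaction library than in any control, 2 were higher and 15 overlapped. Over the 952 T. versicolor features that reached 20 reads summed over the 6 libraries, 23.0% were lower and 2.00% higher in that way. Per read outside the abundant features, 27 members were lower, 4 higher and 31 overlapped, and over 941 features 16.2% were lower and 3.29% higher. On both scales 26 members were lower and 2 higher, those 2 being T_gene_9226 and T_gene_8201. Without interaction replicate 1 the 27 lower members became 41, and without interaction replicate 2 the 4 higher ones became 7. Leaving out a library can only keep or raise such counts, since fewer libraries are left to overlap. The members were chosen for control reads, which pushes them towards being lower in the interaction, so nothing is read from these shares.

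**Figure D5:**
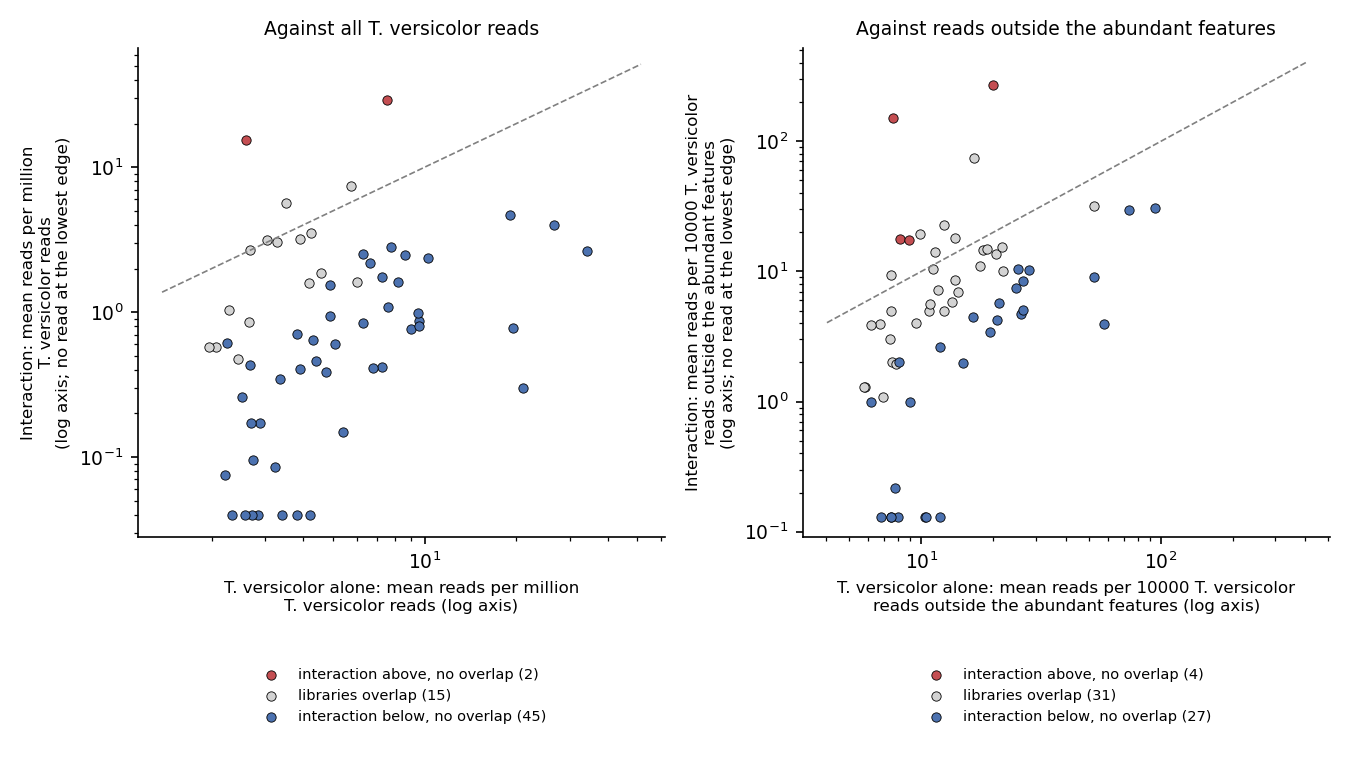
Mean level of each member in the interaction (vertical) against its mean in T. versicolor alone (horizontal), log axes, with the line of equality dashed; red and blue points lie above and below without overlap between libraries, grey points overlap. Left, in CPM, where 2 members lie above without overlap and 45 below. Right, per 10000 T. versicolor reads outside the abundant features, where 4 lie above and 27 below; members without an interaction read are drawn at the lowest edge.

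In the edgeR fit of all T. versicolor features 50 of the 62 members had enough reads to be tested, and 5 of the 12 that had not were without an interaction read. With all T. versicolor reads as the scale, 23 members were called lower and 2 higher, against 31.3% lower and 7.23% higher over all 83 features tested. The median log2 fold change was -2.81 over the members tested and -1.54 over all 83. The members made up 50 of these 83 features and 23 of the 26 called lower. They thus largely set the share called lower and weigh on the median over all 83. The other fits given here share this limit. With the abundant features left out, 48 members were tested, 1 was called lower and 2 higher, against 1.14% and 4.55% of 88 features. The medians were then -0.91 over these members and -0.03 over the 88 features. With DESeq2 size factors in the same fit, 16 members were called lower and 2 higher, against 21.7% and 12.0% of 83. Lower members numbered 4, 6 and 5 without interaction replicates 1, 2 and 3, and 6, 0 and 3 without control replicates 1, 2 and 3, each fit being filtered and scaled anew. Where edgeR called 0 of either direction, without control replicate 2, 9 members had an unadjusted p under 0.05. The rule used one side of this contrast, and nothing is read from the counts of calls.

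The members included 3 pairs whose ID numbers follow each other; whether such features lie beside or over each other in the genome is not known from the table. In the pair of 9838 and 1268 bases, the longer one had 23, 26 and 3 reads in the interaction and 85, 122 and 155 in the controls. The shorter one had 0, 0 and 4 reads in the interaction and 90, 130 and 183 in the controls. Their reads were alike in each control and unlike in interaction replicates 1 and 2. The longer feature had 4.67 ± 3.54 CPM in the interaction and 19.1 ± 3.81 CPM in the controls (SD, n = 3 each). In the pair of 3914 and 3247 bases, both had their highest interaction count in replicate 2, with 22 and 25 reads. The pair of 5593 and 4481 bases moved apart already in the controls, at 21, 16 and 11 reads for the longer one and 35, 66 and 69 for the shorter. Reads of overlapping features could be divided between them by the authors' counting, so the values of such pairs are uncertain.

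Members whose lowest control count was exactly 10 reads had few interaction reads. The 4 at the threshold, of 531, 1980, 3023 and 3442 bases, had 6, 0, 6 and 5 reads in interaction replicate 2 and none in replicates 1 and 3. The 7 features just below it, of 1766 to 7509 bases, had 0 to 5 reads in interaction replicate 1, 0 to 20 in replicate 2 and 0 to 4 in replicate 3.

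Reads of H. fasciculare that align to these T. versicolor features would raise their interaction counts. Such reads on the abundant features would instead enlarge the CPM scale and lower the members' interaction CPM. Neither background was analysed here, because the count columns named for H. fasciculare could not be matched to single samples. How many of the interaction reads on T_gene_9226 and T_gene_8201 came from H. fasciculare was therefore not measured. The 7 members without an interaction read carried none.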

How the data were processed

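Libraries were made from poly(A)-selected RNA of beechwood blocks, per the labels' protocols, which give an mRNA input of 0.1 ng. The part of this input in the sparse reads outside the abundant features was not tested. The authors deposited 1 table with raw read counts per feature, not normalized, and FPKM values beside them. Cutadapt 1.2.1 is listed by the submitters' processing notes together with HTSeq, HISAT2 and edgeR, with no roles. Builds, gene models, settings and strand use are not given in the sources. No name, function, position or sequence accompanies the IDs, and the gene lists planned for annotated IDs were not applied. The 3 count columns and 3 FPKM columns named as H. fasciculare in interaction did not match the labels of 1 sample and no other, and were not used.

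Lengths were recovered from the ratio of counts to FPKM, which was the same in every library up to rounding. All T_ features were fitted with edgeR 4.0.16 (R 4.3.3): filterByExpr with its defaults, TMM scaling to T. versicolor reads, robust quasi-likelihood F test, Benjamini-Hochberg adjustment over all features tested and a threshold of 0.05. Standard errors equal the absolute log2 fold change over the root of its F value. The alternatives comprised limma-voom (limma 3.58.1), DESeq2 1.42.0, other scalings and filters, a fit without the 11 abundant features, a replicate block and leaving out each library. Combined alternatives without the abundant features were chosen after seeing the data. Descriptions and plots used pandas 2.3.3, scipy 1.17.1 and matplotlib 3.10.9 in Python 3.11.15.

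The members, tests and alternatives were chosen with earlier results of these data known. IDs are printed only for the 2 called members with the highest and the 2 with the lowest log2 fold change whose libraries did not overlap; other members are described by length. These were the 5 highest per length in either group, the longest and shortest, the 3 most even and 3 most uneven between controls, those without an interaction read and those at the threshold. Other members described (the most read ones, those with consecutive IDs, and the member of 3226 bases) were chosen after their values were seen.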

Additional observations from a re-analysis of the deposited data

How the results depend on the processing

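The rule gave 62 members; 5 reads in each control in place of 10 gave 178 and 20 reads gave 28. Asking for 10 reads in only 2 controls gave 97 to 123. Against 23 members lower and 2 higher by edgeR, DESeq2 called 0 and 0 (5 at an unadjusted p under 0.05), edgeR without a low-count filter 1 and 0 (24 at an unadjusted p under 0.05), and a filter of 5 CPM in 3 libraries 11 lower. Without the abundant features 1 was lower, 4 with DESeq2 size factors as well, 1 with the replicate block and 1 without interaction replicate 2. Leaving out 1 library gave 0 to 6 lower and 0 to 3 higher members by edgeR (0 of both without control replicate 2, with 9 at an unadjusted p under 0.05). The other scalings and limma-voom stayed within 1.5 times of both counts. Of the 33 members called by limma-voom, 22 were among the 25 of the edgeR fit. All 18 called with DESeq2 size factors and all 19 called with no composition factor were among those 25. The causes were not tested, though each fit without a library was filtered and scaled anew.

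Replicate numbers gave no clear pairing of the libraries: deviations of same-numbered libraries correlated at 0.09, -0.01 and -0.01. Differently numbered libraries ran from -0.08 to 0.09. Few reads per feature limit such correlations, so pairing is not excluded. With the replicate block 15 members were called lower and 0 higher by edgeR (27 members at an unadjusted p under 0.05), all among the 25 called without it. T_gene_9226 and T_gene_8201 each kept their call in 12 of 17 alternatives, and no alternative turned their direction. The control reads that chose the members enter each of these tests. Adjusted p over the alternatives ranged from 1.2e-08 to 1.00 for T_gene_9226 and from 2.9e-09 to 1.00 for T_gene_8201. T_gene_3439 and T_gene_3466 had no interaction read and were chosen for their control reads. Their direction was thus fixed in advance, and no count of calls is given for them. With 3328 and 3354 reads outside the abundant features in interaction replicates 1 and 3, 3 reads already stand for 9.01 and 8.94 per 10000.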
